A study of Mus musculus with 20 samples.

Results

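Osteopontin and its receptors were followed across the stromal and immune cells of mouse interscapular brown adipose tissue (iBAT). The 8 genes were Spp1, which encodes osteopontin, and Cd44, Itgav, Itgb1, Itgb3, Itgb5, Itga4 and Itga9, which encode cell-surface proteins that bind it. They were taken by exact gene symbol from the 31053 gene rows of the count matrices, and all 8 were present. The data were single-cell RNA-seq (scRNA-seq) of the stromal vascular fraction, split on magnetic beads into lineage marker positive cells (Lin+, immune) and lineage marker negative cells (Lin-, non-immune), with 1 library of each from 10 experiments. In 6 experiments the mice were male C57BL/6J, kept at room temperature (RT), housed at 6 °C during 4 days (COLD), or treated over 4 days by osmotic pump with 0.75 nmol/hour of CL316,243, an agonist of the β3-adrenergic receptor (CL), with 2 experiments each. In the other 4 experiments the mice were females of an Adrb1 line, either Adrb1 fl/fl; Pdgfra-CreER -/- (WT) or Adrb1 fl/fl; Pdgfra-CreER +/- (KO), all given tamoxifen, with 1 RT and 1 COLD experiment of each genotype. In the KO mice the Pdgfra promoter drives the recombinase, so the β1-adrenergic receptor gene is a target in Pdgfra-expressing cells and not in immune cells. Each library pooled 3–4 mice of 8–14 weeks, so p-values measure the spread between pools.

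Osteopontin is a secreted, phosphorylated matrix protein and cytokine made by activated macrophages, osteoblasts and many injured tissues, in which it acts on cell adhesion and migration. It binds integrins through an arginine-glycine-aspartate motif, read mainly by the αv integrins (Itgav paired with Itgb1, Itgb3 or Itgb5), and through a neighbouring motif that proteases expose, read by α4β1 and α9β1 (Itga4 or Itga9 paired with Itgb1). CD44, otherwise known as the receptor for hyaluronan, is a receptor outside the integrin family. In adipose tissue osteopontin is known as a product of lipid-associated macrophages and as a chemoattractant for adipocyte progenitors.

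In the mouse genome build mm10, Spp1 lies on the plus strand at chr5:104435118-104441050, Cd44 on the minus strand at chr2:102811141-102901665 and Itgav on the plus strand at chr2:83724397-83806916. Itgb1 lies at chr8:128685654-128733200, Itgb3 at chr11:104608000-104670476 and Itgb5 at chr16:33829665-33949338, all on the plus strand. The plus strand also holds Itga4 at chr2:79255426-79333123 and Itga9 at chr9:118606690-118901003. The counts were made per gene, so no exon, isoform or splice form of Cd44 or the integrins was measured.

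Of 156759 barcodes, 126274 passed the cell filter, of which 59935 were Lin+ and 66339 Lin-, with 7.86e+06 to 4.20e+07 unique molecular identifiers (UMIs) per library and a median of 1204 to 4358 UMIs per cell. Cells were clustered with the 8 genes and all naming markers left out, and clusters were named from marker lists, so "macrophage-like" or "ASC1-like" (adipose stromal cell) stands for a cluster named in this way. In CL replicate 2, 1098 barcodes occurred in both the Lin+ and the Lin- library, 16.4% and 17.1% of their cells. In the other 9 experiments at most 1.83% of a library's cells did so. The fits of COLD or CL against RT and the thinned shares, except that of B cell-like cells, were also computed without these barcodes. All other values on that experiment were computed only with them. The fractions matched their labels in the pan-leukocyte gene Ptprc, at 286 to 1746 CPM (corrected UMIs per 1000000 UMIs of the cells summed) in Lin+ and 6.47 to 41.4 CPM in Lin- libraries. The stromal gene Pdgfra stood at 1.11 to 11.4 CPM in Lin+ and 120 to 436 CPM in Lin- libraries. The 11.4 CPM was that of CL replicate 2, the library with the shared barcodes, against at most 3.53 CPM in the other Lin+ libraries. The libraries at RT in the Adrb1 line were made with version 3 of the 10x kit and all others with version 2, and the collection day also differed between RT and COLD in that line, so kit, day and temperature cannot be told apart there. Adrb1 in ASC1-like cells was 7.57 CPM in WT RT and 4.25 CPM in WT COLD, against 0 CPM in KO RT, where a count of 0 allows up to 2.60 CPM, and 0.448 CPM in KO COLD.

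The first question was which cells hold Spp1 transcripts, and whether that changes when the tissue is stimulated. Macrophage-like cells held little Spp1 at RT and a high level of it in the cold and under CL. Their Spp1 level was 17.3 and 21.2 CPM in the 2 C57 RT libraries, 8.76 CPM in WT RT and 10.3 CPM in KO RT. In the cold it was 2153 and 1971 CPM in the C57 libraries, 3274 CPM in WT and 2531 CPM in KO. Under CL it was 2009 CPM in replicate 1 and 342 CPM in replicate 2. Each of the 4 COLD and both CL libraries thus stood above each of the 4 RT libraries, and the CL libraries stood apart from each other. In the C57 libraries Spp1 rose in macrophage-like cells by 6.79 ± 0.74 on the log2 scale (SE; adjusted p = 0.000389, edgeR quasi-likelihood test over all genes) in the cold and by 5.85 ± 0.71 under CL (adjusted p = 0.00657). The background in these comparisons was high in the cold, with 34.7% of the 11608 genes tested called, and lower under CL, with 4.42% called. Without RT replicate 1 or RT replicate 2 the CL difference was 5.74 and 6.03 and no longer passed the threshold (adjusted p = 0.156 and 0.0853), whereas the cold difference passed it without any of the 6 libraries (6.68 to 6.98). The CL replicates also set the size of the CL difference, which was 4.22 without CL replicate 1 and 6.61 without CL replicate 2, past the threshold in both cases.

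**Figure D1:**
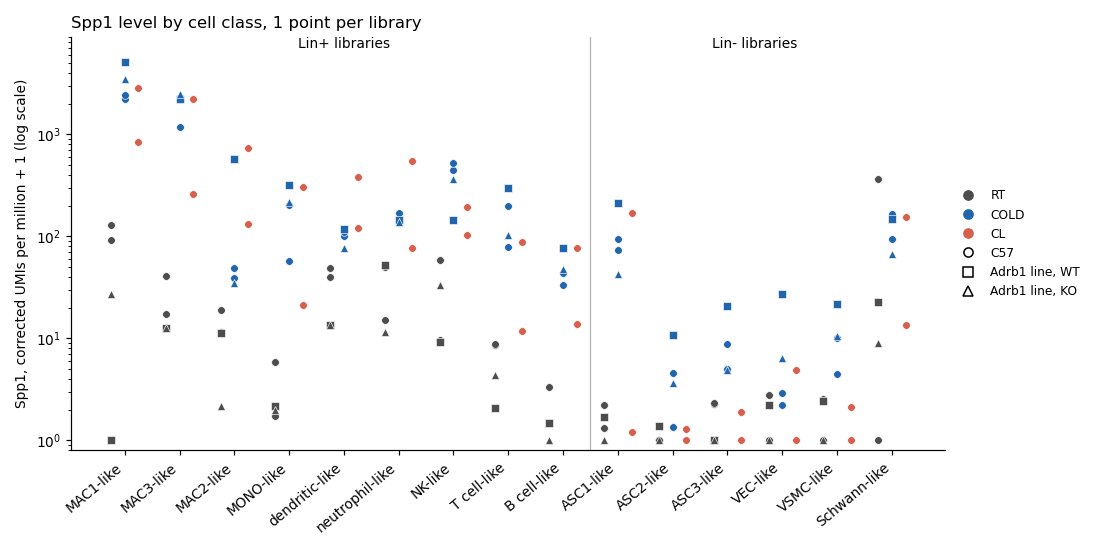
Spp1 level (CPM + 1, log axis) by cell class on the x axis, with 1 point per library, colour for treatment and marker shape for the mouse line and genotype. MAC1-like and MAC3-like cells stood at 1193 to 5115 CPM in the cold, and B cell-like cells at 32.3 to 75.3 CPM.

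The composition of the macrophage-like cells differed with treatment, so each cluster type was also read alone. MAC2-like cells (Folr2, Mrc1 and Lyve1 among the markers, known for resident macrophages) made up 709 of 796 and 684 of 805 macrophage-like cells in the C57 RT libraries. In the cold C57 libraries MAC1-like cells (Gpnmb and Trem2 among the markers, known for lipid-handling macrophages) numbered 1601 and 1144, and MAC3-like cells (Clec4e and Ccl7 among the markers) 1343 and 735, against 130 and 56 MAC2-like cells. In Spp1, MAC1-like cells held 2221 and 2443 CPM in the cold C57 libraries, 5115 CPM in WT and 3532 CPM in KO. At RT 14 to 66 cells per library were MAC1-like, too few in C57 for a test, with 0 to 129 CPM of Spp1. MAC3-like cells held 11.6 to 39.9 CPM of Spp1 at RT and 1193 to 2477 CPM in the cold, and the C57 difference was 5.94 ± 0.95 (adjusted p = 0.00679; 0.0709 and 0.0863 without RT replicate 1 or 2). In that comparison 15.2% of genes were called, and Spp1 and Itga4 were the 2 of 7 tested genes of the set that were. Under CL, with 0% of genes called, MAC3-like cells held 2237 and 261 CPM of Spp1, a difference of 5.35 ± 0.93 (adjusted p = 0.103, edgeR). With 1 library left out it ranged from 3.34, without CL replicate 1, to 6.22. With the replicate block, that is with the replicate number as a term in the model, it was 4.97 (adjusted p = 0.00458, edgeR). The MAC3-like class was added to the tests after the data had been seen.

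In MAC2-like cells the Spp1 level was 10.6 and 17.8 CPM at RT, 47.8 and 37.7 CPM in the cold and 735 and 131 CPM under CL in the C57 libraries. Spp1 rose under CL by 4.74 ± 0.59 (adjusted p = 0.00106, 2.97% of genes called; 0.115 and 0.0568 without RT replicate 1 or 2). Without CL replicate 1 this difference was 3.22 and without CL replicate 2 it was 5.45, both past the threshold. The cold difference was 1.43 ± 0.71 (adjusted p = 0.291, 2.64% of genes called; 0.00305 and 0.00505 without CL replicate 1 or 2). The cold value in these cells depended on the clusters and libraries taken, since it was 4.82 (adjusted p = 0.00998) with the libraries aligned in another way before clustering, chosen after the data had been seen, and 3.04 (adjusted p = 0.0224) over all 10 experiments. In the Adrb1 line MAC2-like cells held 577 CPM in WT COLD and 34.1 CPM in KO COLD, against 10.3 and 1.16 CPM at RT. The cold levels of 47.8, 37.7 and 34.1 CPM lay within the cold range of B cell-like cells, the background described below. Only the 577 CPM of WT COLD stood above that range. Free RNA weighs more in CPM where cells hold few UMIs, so these positions do not decide which levels are background. Of the 2 MAC2-like clusters, the level was higher in the one led by Cd209f and Ccl8, at 856 and 198 CPM under CL and 820 CPM in WT COLD, than in the one led by Lilra5 and Mgl2, at 89.5, 45.9 and 225 CPM in the same libraries. At RT these 2 clusters held 0 to 64.3 CPM and 1.98 to 11.6 CPM.

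The macrophage-like cells accounted for most Spp1 UMIs of the stimulated Lin+ libraries. At RT they held 19.4% and 24.7% of the Lin+ Spp1 UMIs in C57, 19.7% in WT and 32.1% in KO. In the cold they held 93.0% and 89.7% in C57, 89.9% in WT and 89.2% in KO, and under CL 88.7% and 68.8%. Their share of the Lin+ cells was 9.88–17.2% at RT, 16.3–35.7% in the cold and 42.7% and 14.3% under CL, so in the cold their share of UMIs was well above their share of cells. In the cold C57 libraries 57.9% and 71.8% of the Lin+ Spp1 UMIs came from MAC1-like cells and 35.1% and 17.9% from MAC3-like cells, whereas in KO COLD MAC3-like cells held 48.1% and MAC1-like cells 41.0%. An unnamed Lin+ cluster led by Retnla held at most 2.49% in any library, although its Spp1 level in the cold and under CL was 653 to 1908 CPM. Shares of UMIs carry both the number of cells and the level per cell.

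**Figure D2:**
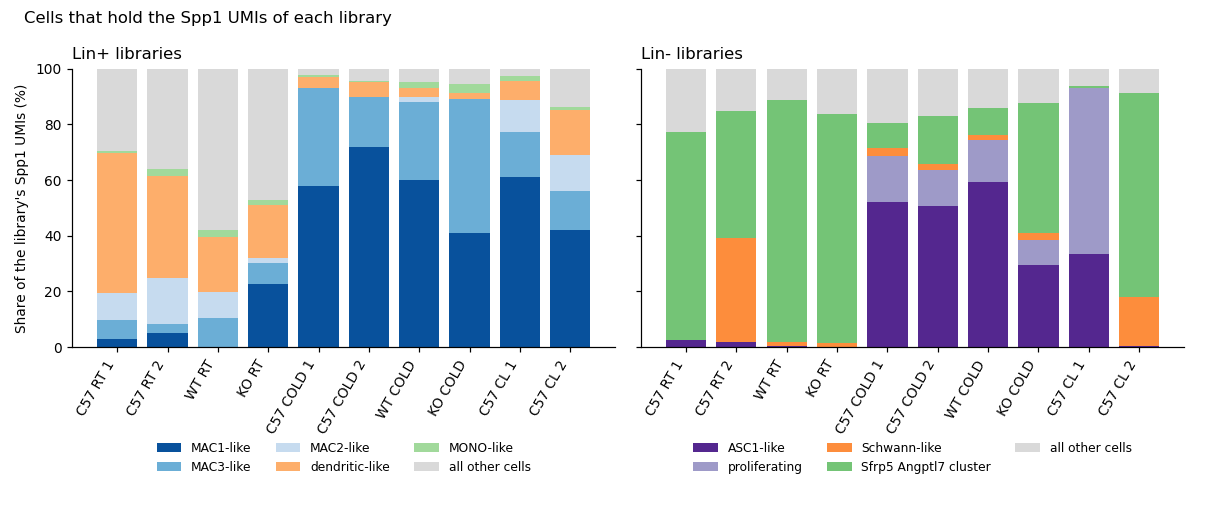
Share (percent) of the Spp1 UMIs of each library by cell class, with the Lin+ and the Lin- fraction in separate panels and 1 bar per library. Macrophage-like cells took 19.4–32.1% of the Lin+ UMIs at RT and 89.2–93.0% in the cold.

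Counted as cells with at least 1 Spp1 UMI after each cell was thinned to 1000 UMIs, the RT and COLD experiments did not overlap. Of macrophage-like cells, 0.531% and 1.28% in C57 RT, 0.310% in WT RT and 0% in KO RT held Spp1, the last with an exact 95% interval up to 1.32%. In the cold 37.0% and 36.8% did in C57, 37.8% in WT and 34.4% in KO, and under CL 33.0% and 11.3%. The 4 COLD experiments averaged 36.5 ± 1.47% against 0.531 ± 0.547% in the 4 RT experiments (SD, n = 4 each; two-sided exact permutation test, p = 0.0286, the smallest value that 70 arrangements allow, and 0.0286 adjusted over the 4 share tests). Over all Lin+ cells the averages were 13.8 ± 3.16% and 0.589 ± 0.168% (exact p = 0.0286). In all 4 share tests the arrangements exchanged experiments freely over lines and replicate numbers, so shared experiments were not kept together. A permutation within lines or pairs allows fewer arrangements and was not run. In the Adrb1 line kit and day also differed between RT and COLD. Within C57 the macrophage-like averages were 36.9% and 0.907%, and within the Adrb1 line 36.1% and 0.155%, where 2 against 2 experiments cannot give an exact p below 0.333. Without thinning the macrophage-like averages were 56.5 ± 4.17% and 2.66 ± 0.461%. Intervals cover counting error only.

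B cell-like cells were taken as the background of the Lin+ libraries, since free RNA in the droplets gives UMIs to all cells. In the cold 4.68–5.97% of B cell-like cells held a Spp1 UMI after the same thinning, against 0–0.187% at RT and 3.85% and 1.44% under CL. Their Spp1 level was 32.3 to 75.3 CPM in the cold. In each COLD and CL library the share of B cell-like cells was far below that of the macrophage-like cells. At RT the macrophage-like shares, 0–1.28%, were themselves low, above those of the B cell-like cells of the same library in C57 and WT and equal to them, at 0%, in KO. The exact 95% intervals of both shares overlapped in each RT library but C57 RT replicate 2, where they were 0.617–2.35% and 0.00202–0.445%. Shares at or below about that of B cell-like cells are read as background. B cell-like cells had a median of 1454 UMIs, and free RNA weighs more in cells with few UMIs, so this reading is approximate.

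**Figure D3:**
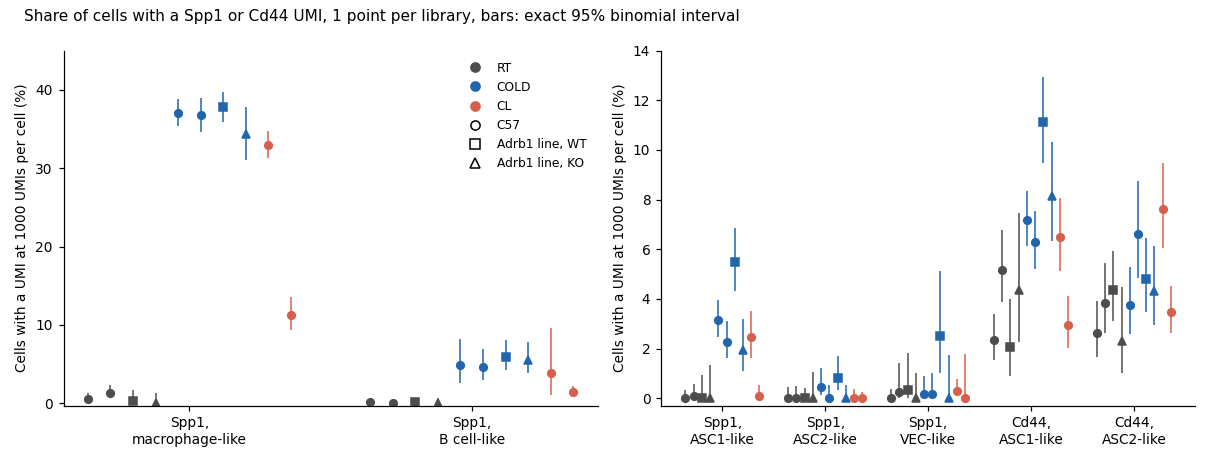
Percent of cells with at least 1 UMI of Spp1 or Cd44 after thinning to 1000 UMIs, by class on the x axis, with 1 point per library, colour for treatment and bars for the exact 95% binomial interval. In macrophage-like cells the COLD points lay at 34.4–37.8% and the RT points at 0–1.28%.

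The other Lin+ classes were set beside that background in CPM, without a correction for their UMIs per cell. In NK-like cells (natural killer) Spp1 stood at 8.28 to 57.4 CPM at RT, 142 to 524 CPM in the cold and 102 and 192 CPM under CL, and in NEUT-like cells (neutrophils) at 10.6 to 51.0 CPM, 137 to 170 CPM and 547 and 76.0 CPM. The 4 COLD libraries lay above the 4 RT libraries in both classes, which were not among those fitted. MONO-like cells (monocytes) held 0.742 to 4.81 CPM of Spp1 at RT, 56.4 to 317 CPM in the cold and 301 and 20.4 CPM under CL. Their C57 difference was 5.40 ± 1.20 in the cold (adjusted p = 0.0640; 5.30, adjusted p = 0.00747 with the replicate block) and 5.57 ± 1.19 under CL (adjusted p = 0.108; 5.20, adjusted p = 0.0142 with the block), with 0.776% and 0.114% of genes called and none of the 6 tested genes of the set among them. Leaving out 1 library moved both values. The cold one ran from 4.16 without COLD replicate 1 to 7.16 without RT replicate 2 and was called without CL replicate 1 or 2, and the CL one ran from 2.86 without CL replicate 1 to 7.34 without RT replicate 2 and was called without CL replicate 2. Dendritic-like cells held 47.7 and 39.1 CPM of Spp1 in C57 RT and 12.4 and 12.6 CPM in WT and KO RT, within the RT range of the NK-like cells. In the cold they held 76.3 to 116 CPM, below each NK-like and NEUT-like value, and under CL 378 and 121 CPM. Their difference was 1.05 ± 0.38 in the cold (adjusted p = 0.132, 4.62% of genes called) and 2.24 ± 0.39 under CL (adjusted p = 0.0655, 0.435% called; 2.17, adjusted p = 0.0334 with the block). The cold value was called without CL replicate 1 or 2 (1.04 and 1.06), and the CL value without either COLD or either CL library, at 1.44 without CL replicate 1. Itgb5 in these cells differed by 1.92 ± 0.43 under CL (adjusted p = 0.0982) and was likewise called with the block. DEND1-like cells, the type led by Xcr1, held 53.4 to 81.3 CPM at RT, 75.5 to 98.3 CPM in the cold and 52.3 and 101 CPM under CL, so that their groups overlapped. Over all Lin+ cells together Spp1 rose from 18.4 and 18.0 CPM to 947 and 759 CPM in the cold (5.60 ± 0.96, adjusted p = 0.0348, 11.1% of genes called), a call lost without any one of the 4 RT and COLD libraries (5.48 to 5.71, adjusted p = 0.115 to 0.227). Under CL it was 1216 and 131 CPM (5.11 ± 0.94, adjusted p = 0.191; 2.99 without CL replicate 1 and 5.95 without CL replicate 2, past the threshold in both), in a comparison in which 0% of genes were called by edgeR and 2578 had an unadjusted p under 0.05.

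In the Lin- fraction, the class of the 3 named adipose stromal classes with the most Spp1 in the cold was ASC1-like, the interstitial adipose stromal cells. At RT 2 and 2 ASC1-like cells of the C57 libraries, 1 of WT and 0 of KO held a Spp1 UMI, at levels of 0.333, 1.22, 0.687 and 0 CPM. In the cold they held 93.5 and 72.4 CPM in C57, 213 CPM in WT and 41.9 CPM in KO. Under CL the replicates parted, with 168 CPM in replicate 1 and 0.208 CPM in replicate 2. Pooled over the 2 C57 libraries of each group, the cold level was 155 times the RT level, with an exact 95% counting interval of 60.5 to 571. The interval is wide because it rests on 4 UMIs at RT. It takes the UMIs as independent and leaves out the spread between cells and between pools, so it understates the uncertainty. The edgeR difference in the cold was 7.21 ± 2.15 (adjusted p = 0.0721), and it passed the threshold with the replicate block (8.19 ± 1.97, adjusted p = 0.0294) and without CL replicate 1 or CL replicate 2 (7.22 and 7.21). A fitted difference of this kind depends on how the model treats the few RT counts. Under CL the difference was 7.12 ± 2.19 (adjusted p = 0.209), and without CL replicate 1 it was -1.09, whereas without CL replicate 2 it was 8.16 and passed the threshold.

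The share of ASC1-like cells with Spp1 after thinning was likewise low at RT. It was 0% in C57 RT replicate 1, WT RT and KO RT and 0.102%, a single cell of 984, in C57 RT replicate 2. In the cold it was 3.15% and 2.27% in C57, 5.48% in WT and 1.94% in KO. The averages were 3.21 ± 1.60% and 0.0254 ± 0.0508% (n = 4 each, exact p = 0.0286), and under CL the shares were 2.46% and 0.0921%. As the background in the Lin- libraries, VEC-like cells (vascular endothelium) held Spp1 in 0–2.52% of cells and ASC2-like cells in 0–0.822% in the cold, with the high value of each in WT COLD. In each cold library the ASC1-like share was above both. In CPM, ASC2-like cells held 0 to 9.74, ASC3-like cells 0 to 19.8 and VEC-like cells 0 to 26.1 over all 10 libraries, and Spp1 did not pass the low-count filter in these classes.

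Markers of macrophages were looked for in the ASC1-like cells that held Spp1. In the cold libraries 132, 121, 153 and 53 ASC1-like cells had a Spp1 UMI before thinning. The 8 general macrophage markers (Adgre1, C1qa, C1qb, C1qc, Cd68, Csf1r, Fcgr1 and Mertk) summed to 14.1–24.8 CPM in them and to 24.7–31.9 CPM in the ASC1-like cells without Spp1. In the macrophage-like cells of the cold libraries the same 8 genes summed to 4826–10683 CPM. Of the ASC1-like cells with Spp1, 3.92–9.09% were among the likely doublets and 0–3.27% held at least 2 of the markers. Of those without Spp1 in the cold, 6.22–8.99% and 0.828–1.51% did. At least 2 markers were held by 3.27% with and 1.51% without Spp1 in WT COLD, and by 1.89% and 1.11% in KO COLD. In C57 COLD it was 0% against 0.828% in replicate 1 and 0.826% against 1.06% in replicate 2. The Spp1-bearing cells had more UMIs than the others, with medians of 4808 to 11285 against 3570 to 8809.

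Divided more finely, at Leiden resolution 2, the 11136 ASC1-like cells fell mainly into 3 clusters, and Spp1 was not spread evenly over them. A cluster led by Smoc2, Blnk and Cxcl14 made up 80.7% of the RT and 43.5% of the COLD ASC1-like cells. Its Spp1 level in the cold was 23.2 and 12.9 CPM in C57, 47.8 CPM in WT and 5.39 CPM in KO. An unnamed cluster led by Tnc, Timp1, Ccl2 and Cxcl5 held 10.8% of ASC1-like cells at RT, 35.2% in the cold and 20.1% under CL. In the cold this cluster contributed 72.9% and 73.8% of the ASC1-like Spp1 UMIs in C57, 85.1% in WT and 71.5% in KO, at levels of 182, 146, 331 and 76.7 CPM. In CL replicate 1 it contributed 98.9%, at 500 CPM, and in CL replicate 2 it had no Spp1 UMI in 173 cells. A cluster led by the interferon-response genes Cxcl10, Ifit3 and Ifit1 contributed a further 15.8% and 17.2% in C57 COLD, 7.43% in WT COLD and 24.4% in KO COLD. This division was looked at after the levels were known and is a description.

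Outside the ASC1-like cells, a small unnamed Lin- cluster carried Spp1 at every temperature. This cluster of 441 cells, led by Sfrp5 and Angptl7 and singled out after its Spp1 values were seen, held 708 and 1068 CPM in C57 RT, 1143 and 1284 CPM in WT and KO RT, 2126 and 2306 CPM in C57 COLD, 1983 and 2614 CPM in WT and KO COLD and 385 and 1217 CPM under CL. At RT it accounted for 74.8% and 45.3% of the Lin- Spp1 UMIs in C57 and for 86.8% and 82.1% in WT and KO. In the cold its part was 8.88% to 46.6%, while that of ASC1-like cells went from 0–2.40% at RT to 29.6–59.3%. Schwann-like cells were uneven, at 0 and 368 CPM in the 2 C57 RT libraries and at 66.9 to 167 CPM in the cold. Proliferating Lin- cells had no Spp1 UMI in the 4 RT libraries, held 84.9 to 201 CPM in the cold, and stood at 510 and 0 CPM in the 2 CL libraries. Not every C57 library held 20 of these cells and they were not tested, so no change is concluded from these values. Over all Lin- cells the C57 difference was 2.65 ± 0.72 in the cold (adjusted p = 0.109; 0.000304 and 0.000513 without CL replicate 1 or 2) and 2.31 ± 0.71 under CL (adjusted p = 0.336). In these comparisons 0.0130% and 0% of genes were called by edgeR and none of the 8, although 3750 and 1766 genes had an unadjusted p under 0.05.

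The receptor genes were then compared across the same classes, first by level and then by response. In Lin+ libraries the order of Cd44 over the 6 C57 experiments was neutrophil-like (NEUT) 973 ± 113 CPM, MONO-like 658 ± 136 CPM, dendritic-like 240 ± 54.0 CPM, macrophage-like 226 ± 56.6 CPM and T-cell-like (Tlym) 129 ± 23.3 CPM (SD, n = 6). Neighbours in this order differed by more than either SD except dendritic-like and macrophage-like cells. The order of that pair changed with treatment in C57, with dendritic-like cells at 324 and 264 CPM above macrophage-like cells at 165 and 158 CPM at RT, and at 182 and 186 CPM below their 296 and 270 CPM in the cold. In Lin- libraries the Cd44 order was Schwann-like 96.0 ± 65.8 CPM, ASC3-like 89.0 ± 20.7 CPM, ASC1-like 58.0 ± 28.4 CPM and ASC2-like 46.7 ± 21.1 CPM, of which ASC3-like and ASC1-like cells differed by more than either SD. Each level is relative to all UMIs of that cell type.

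Cd44 was called higher in the cold in ASC1-like and in macrophage-like cells. In ASC1-like cells it was 23.9 and 42.4 CPM in C57 RT, 30.9 CPM in WT RT and 40.5 CPM in KO RT. In the cold it was 80.7 and 68.2 CPM in C57, 108 CPM in WT and 70.8 CPM in KO, without overlap with RT, and under CL it was 97.0 and 36.1 CPM. The C57 difference in the cold was 1.38 ± 0.33 (adjusted p = 0.0366; 0.0578 without the shared barcodes of CL replicate 2, and 0.0976 to 0.181 without any one of the RT and COLD libraries), and Cd44 was the 1 of 7 tested genes of the set called there, with 9.44% of genes called. Under CL it was 1.21 ± 0.34 (adjusted p = 0.170, 0.883% of genes called), with 0.54 without CL replicate 1 and 1.69 without CL replicate 2 (adjusted p = 0.453 and 0.00322). The share of ASC1-like cells with a Cd44 UMI after thinning averaged 8.19 ± 2.10% over the COLD and 3.48 ± 1.53% over the RT experiments (n = 4 each, exact p = 0.0286). In VSMC-like cells (vascular smooth muscle), taken as the background, the share was 0.481–1.74% in the cold and 0–1.05% at RT. The Tnc-led cluster of ASC1-like cells held 89.3 to 137 CPM of Cd44 in the cold and the Smoc2-led cluster 37.2 to 58.0 CPM. Restricted to the Smoc2-led cluster, which alone kept the ASC1 name at the finer resolution, the cold difference was 0.79 ± 0.22 (adjusted p = 0.0611) and that of the shares 1.33 percentage points (n = 4 each, exact p = 0.2). With the libraries aligned in another way before clustering it was 0.59 (adjusted p = 0.310).

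In macrophage-like cells Cd44 was 165 and 158 CPM in C57 RT, 296 and 270 CPM in C57 COLD and 213 and 254 CPM under CL. It rose in the cold by 0.86 ± 0.20 (adjusted p = 0.0103; 0.0567 to 0.0755 without RT replicate 1, RT replicate 2 or COLD replicate 1), while the CL difference was 0.54 ± 0.20 (adjusted p = 0.131). In the Adrb1 line the values were 578 and 438 CPM at RT (version 3 kit) against 610 and 569 CPM in the cold (version 2 kit). Within the cluster types, Cd44 stood at 88.5 to 102 CPM at RT and 123 to 154 CPM in the cold in C57 MAC2-like cells and at 464 to 519 and 369 to 455 CPM in MAC3-like cells, and neither difference passed the test (0.35 ± 0.26 and -0.30 ± 0.25; adjusted p = 0.503 and 0.433). MAC2-like cells, with the lower level, were the majority in C57 RT. In dendritic-like cells the Cd44 difference was negative, -0.89 ± 0.24 in the cold (adjusted p = 0.0664; 0.00904 and 0.00832 without CL replicate 1 or 2), with RT libraries at 324 and 264 CPM against 182 and 186 CPM for COLD.

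**Figure D4:**
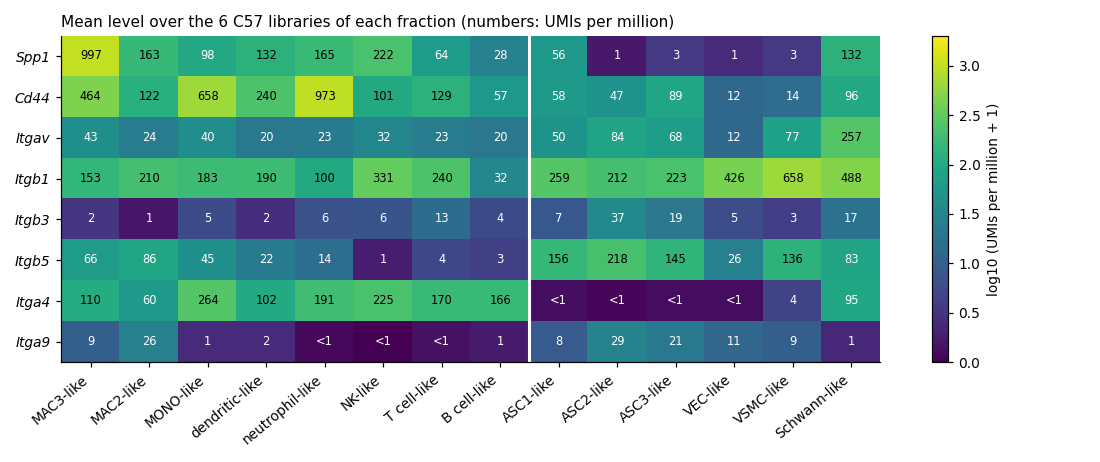
Mean level of the 8 genes (rows) over the 6 C57 experiments by cell class (columns, Lin+ left and Lin- right), with colour for log10 (CPM + 1) and the number in each field in CPM. Cd44 reached 973 CPM in neutrophil-like cells, and Itga4 was below 1 CPM in the ASC1-, ASC2-, ASC3- and VEC-like cells of the Lin- libraries.

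Itgav, the αv chain, had its highest C57 level in Schwann-like cells (257 ± 66.6 CPM), well above the next class, ASC2-like cells (84.4 ± 17.2 CPM). In Lin+ libraries it was lower and more even, at 40.3 ± 6.02 CPM in MONO-like and 36.7 ± 12.7 CPM in macrophage-like cells, which did not differ beyond their SD. In macrophage-like cells Itgav was 32.3 and 22.7 CPM in C57 RT, 56.4 and 46.4 CPM in C57 COLD and 36.5 and 26.1 CPM under CL. It rose in the cold by 0.97 ± 0.22 (adjusted p = 0.0108; 0.0665 and 0.0794 without RT replicate 2 or COLD replicate 1), and the CL difference was 0.19 ± 0.23 (adjusted p = 0.641). Within the cluster types the cold difference of Itgav did not pass the test, at 0.00 ± 0.48 in MAC2-like cells (adjusted p = 0.999) and 0.83 ± 0.28 in MAC3-like cells (adjusted p = 0.0717). The part of the cluster mix in the macrophage-like value was not tested. The Adrb1 line showed the same order, with 36.3 and 42.5 CPM in the RT libraries, below the 80.3 and 70.5 CPM of COLD. In ASC1-like cells Itgav held 34.4 to 55.1 CPM at RT and 45.2 to 54.7 CPM in the cold (0.39 ± 0.20 in C57, adjusted p = 0.238).

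The β chains that pair with αv differed in where they were found. Itgb1, shared by α4, α9 and αv, was measured in all 11 classes tested, with the highest C57 levels in VSMC-like (658 ± 106 CPM), Schwann-like (488 ± 97.7 CPM) and VEC-like cells (426 ± 84.8 CPM). Its cold difference lay between -0.33 and 0.22 over the 11 classes, and it was not called in any of them in the cold or under CL by edgeR. In Lin+ cells replicate 1 was above replicate 2 in each C57 group, with 233 and 135 CPM at RT, 224 and 135 CPM in the cold and 214 and 107 CPM under CL over all cells. Itgb3 was low, with its C57 top in ASC2-like cells (37.1 ± 6.81 CPM), above ASC3-like cells (19.1 ± 5.63 CPM), and 0.345 to 1.97 CPM in macrophage-like cells. In ASC1-like cells Itgb3 was 2.67 and 3.94 CPM at RT, 7.16 and 5.91 CPM in the cold and 16.7 and 6.04 CPM under CL in C57, differences of 1.16 ± 0.47 (adjusted p = 0.152) and 1.94 ± 0.48 (adjusted p = 0.126). None of the 6 classes in which Itgb3 was tested passed the threshold in either contrast.

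Itgb5 in C57 was 218 ± 37.7 CPM in ASC2-like, 156 ± 46.6 CPM in ASC1-like and 145 ± 37.4 CPM in ASC3-like cells, the last pair not differing beyond their SD, and VSMC-like cells held 136 ± 26.7 CPM, which did not differ from ASC3-like cells beyond the SD. In Schwann-like cells it was 83.2 ± 28.2 CPM, and in Lin+ libraries 101 ± 19.9 CPM in macrophage-like cells against 44.6 ± 7.50 CPM in MONO-like cells. In macrophage-like cells it was 71.6 and 87.3 CPM in C57 RT, 115 and 127 CPM in the cold and 96.7 and 106 CPM under CL, and it rose in the cold by 0.66 ± 0.19 (adjusted p = 0.0252; 0.0827 to 0.156 without RT replicate 1, COLD replicate 1 or COLD replicate 2). Its CL difference was 0.35 ± 0.19 (adjusted p = 0.286). Within the cluster types the cold difference of Itgb5 was -0.22 ± 0.36 in MAC2-like cells (adjusted p = 0.791) and 0.64 ± 0.28 in MAC3-like cells (adjusted p = 0.142), and the part of the cluster mix was not tested. In the Adrb1 line macrophage-like cells overlapped between RT (76.2 and 108 CPM) and COLD (94.7 and 89.8 CPM). Over all Lin+ cells Itgb5 rose in the cold by 1.15 ± 0.18 (adjusted p = 0.0292; 0.107 to 0.226 without any one of the RT and COLD libraries). In ASC1-like cells it was 175 and 235 CPM in C57 RT against 114 and 134 CPM in C57 COLD (-0.56 ± 0.30, adjusted p = 0.269).

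Of the α chains that read the protease-exposed motif, Itga4 is described first. It was highest in C57 in MONO-like (264 ± 43.2 CPM), NK-like (225 ± 79.9 CPM) and NEUT-like cells (191 ± 72.9 CPM), of which neighbours in this order did not differ beyond their SD, and in Lin- libraries it stood at 94.6 ± 46.8 CPM in Schwann-like cells. In ASC1-like cells Itga4 was 0.319 ± 0.341 CPM, under the low-count filter. In MAC3-like cells it fell in the cold by 1.36 ± 0.23 (adjusted p = 0.00843; 0.0505 to 0.0851 without RT replicate 1, RT replicate 2 or COLD replicate 1), from 182 and 143 CPM to 65.9 and 64.5 CPM, with 100 and 106 CPM under CL. In macrophage-like cells as a whole the Itga4 difference was -0.47 ± 0.18 (adjusted p = 0.0765). The RT libraries of the Adrb1 line, made with the version 3 kit, held far more of it, with 591 and 580 CPM over all Lin+ cells against 125 and 160 CPM in C57 RT. Line, sex, tamoxifen and kit differ together in this comparison and cannot be told apart.

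Itga9 was the gene of the set that fell in macrophage-like cells. It was 47.8 and 33.1 CPM in C57 RT, 37.7 CPM in WT RT and 47.8 CPM in KO RT. In the cold it was 7.03 and 5.62 CPM in C57, 6.99 CPM in WT and 6.07 CPM in KO, and under CL 12.2 and 12.0 CPM, so that the 3 treatments did not overlap. It fell by 2.60 ± 0.25 in the cold (adjusted p = 0.000259) and by 1.74 ± 0.24 under CL (adjusted p = 0.0109; 0.138 without RT replicate 1). MAC2-like cells, with 54.7 and 37.4 CPM at RT, held 12.3 and 24.1 CPM in the cold (-1.64 ± 0.42, adjusted p = 0.0535; -1.65, adjusted p = 0.0447 with the replicate block; 0.00273 and 0.00625 without CL replicate 1 or 2) and fell by 1.75 ± 0.30 under CL (adjusted p = 0.00674; 0.228 without RT replicate 1). As MAC2-like cells were the majority of the macrophage-like cells in C57 RT and KO RT (163 of 291), though not in WT RT (141 of 336), the change of cluster mix moves with the macrophage-like value, and its part in it was not tested. In C57 Lin- libraries Itga9 was highest in ASC2-like cells (29.3 ± 10.5 CPM), followed by ASC3-like (20.9 ± 7.30 CPM), VEC-like (11.2 ± 5.31 CPM), VSMC-like (9.10 ± 5.88 CPM) and ASC1-like cells (7.84 ± 2.09 CPM), and the last 3 classes differed from each other by less than the larger SD.

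Of the set, 5 of the 8 genes were called in macrophage-like cells in the cold, with Spp1, Cd44, Itgav and Itgb5 higher and Itga9 lower, where 34.7% of all genes were called. Within the cluster types 0 of 7 tested genes were called by edgeR or DESeq2 in MAC2-like cells in the cold (1, Itga9, at an unadjusted p under 0.05), where edgeR called 2.64% of all genes, and 2 of 7, Spp1 and Itga4, in MAC3-like cells, where 15.2% were. Under CL in macrophage-like cells 2 of 8 were called, Spp1 and Itga9, where 4.42% of all genes were. The median difference of the 8 in the cold was 0.30 and that of all genes -0.02. Over all Lin+ cells 3 of 8 (Spp1, Itgb5 and Itga9) were called in the cold, where 11.1% of all genes were, and each of these calls was lost without any one of the RT and COLD libraries. In ASC2-, ASC3- and VEC-like cells none of the 6, 6 and 5 genes tested were called in the cold, where 0.526%, 0.149% and 0.237% of genes were, or under CL, where 0.0563%, 0.00996% and 0% were. The cold and CL comparisons share the 2 RT libraries.

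**Figure D5:**
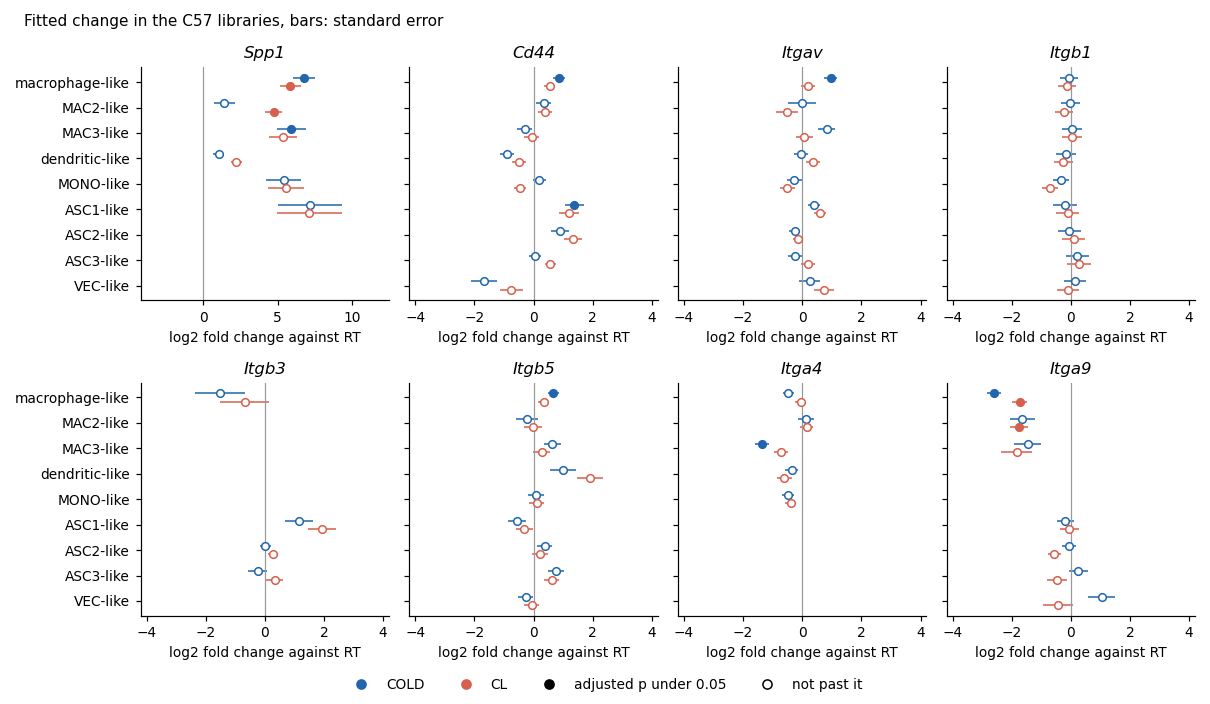
Log2 difference from RT of the 8 genes in the cold and under CL by cell class in C57 libraries, with bars for the SE and filled points for an adjusted p under 0.05. In macrophage-like cells in the cold Spp1 lay at 6.79 and Itga9 at -2.60.

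Whether the cold response of a gene differed between stromal classes was tested in a model with both classes of the same libraries. For Cd44 the response of ASC1-like cells was above that of VEC-like cells by 3.06 ± 0.41 (adjusted p = 0.00400; 0.0719 without RT replicate 1), with VEC-like cells at 22.7 and 16.2 CPM in C57 RT and 5.42 and 7.30 CPM in the cold. In that test 3.62% of genes were called. Against ASC2-like cells the Cd44 response did not differ by the test (0.46 ± 0.29, adjusted p = 0.402; 0.085 without COLD replicate 1 and 0.97 without COLD replicate 2), with ASC2-like cells at 23.3 and 33.7 CPM in C57 RT against 39.0 and 58.0 CPM in C57 COLD. Itgav responded more in ASC1-like than in ASC2-like cells (0.63 ± 0.18, adjusted p = 0.0447) and Itgb5 less (-0.96 ± 0.20, adjusted p = 0.0102), with 7.11% of genes called; the first call was lost without any one of the RT and COLD libraries and the second without RT replicate 1, COLD replicate 1 or COLD replicate 2 (adjusted p up to 0.271 and 0.114). The Spp1 difference between ASC1-like and VEC-like responses was 5.53 ± 1.51 (adjusted p = 0.0721). The value was 1.92 without RT replicate 2 and 5.55 without CL replicate 1 or 2. Spp1 did not pass the low-count filter in VEC-like cells alone and entered this fit through the ASC1-like cells. It thus depends on few VEC-like counts, and no difference between the classes is concluded from it.

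Loss of Adrb1 in Pdgfra-expressing cells was compared over both temperatures, with the spread of all 10 experiments. In ASC1-like cells Spp1 was 213 CPM in WT COLD and 41.9 CPM in KO COLD, the highest and the lowest of the 4 cold libraries, and the KO difference was -2.33 ± 1.55 (adjusted p = 1). In macrophage-like cells Spp1 was 3274 CPM in WT COLD and 2531 CPM in KO COLD, with a KO difference of -0.16 ± 0.74 (adjusted p = 1). In both classes 0% of genes were called by edgeR, with 123 and 236 genes at an unadjusted p under 0.05. Fitted on the 4 Adrb1-line experiments alone, the Spp1 difference in ASC1-like cells was -2.35. With 1 UMI in WT RT and 0 in KO RT, this value sets 1 WT COLD library against 1 KO COLD library and has no replicate check. Cd44 in ASC1-like cells was 108 CPM in WT COLD and 70.8 CPM in KO COLD (-0.21 ± 0.36, adjusted p = 1).

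Of the genes around osteopontin, 4 lists were read in macrophage-like cells, in which 34.7% of all genes were called in the cold. Of 9 tested of 20 other integrin subunits, 3 rose and 2 fell in the cold, with Itgb7 (2.19 ± 0.21) and Itgb2, the β chain of the leukocyte integrins (1.33 ± 0.17), higher and Itga8 (-2.39 ± 0.59) and Itgal (-1.42 ± 0.44) lower. Of 7 tested of 16 other ligands of the same receptors, 3 rose and 1 fell. The proteoglycan Vcan (4.10 ± 0.78), Thbs1 (2.38 ± 0.33) and Emilin1 (1.48 ± 0.30) rose, and Vcam1, a ligand of α4β1, fell (-4.42 ± 0.47). Of 7 tested of 10 genes for osteopontin processing and further reported receptors, 4 rose and 2 fell. Sdc1 (5.02 ± 0.41), Mmp12 (2.85 ± 0.38) and Fam20c, the kinase that phosphorylates secreted proteins (2.84 ± 0.21), rose, and Mmp9 fell (-4.16 ± 0.54). Of 19 tested of 21 genes of the integrin adhesion machinery, 5 rose and 3 fell, a share near that of all genes, with Ezr higher (0.95 ± 0.23) and Tln2 (-4.37 ± 0.52), Src (-2.18 ± 0.60) and Ptk2 (-1.08 ± 0.34) lower. The list medians were 0.47, 0.70, 2.31 and 0.16, against -0.02 for all genes.

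Within the cluster types fewer list members were called in the cold. In MAC2-like cells, where 2.64% of all genes were called, 0 of 7 integrins, 1 of 5 ligands (Vcam1, -1.93 ± 0.46), 1 of 6 processing genes (Sdc4, -1.19 ± 0.29) and 0 of 17 adhesion genes were called by edgeR, each call a fall. At an unadjusted p under 0.05 the integrins had 1 and the adhesion genes 0. In MAC3-like cells, where 15.2% of all genes were called, Itgal fell among 8 integrins (-2.20 ± 0.52), and Vcam1 (-4.34 ± 0.41) and Fn1 (-1.34 ± 0.26) fell among 6 ligands. Of 7 processing genes in these cells Fam20c rose (2.84 ± 0.45) and Mmp9 fell (-3.96 ± 0.73), and 0 of 15 adhesion genes were called by edgeR, with 4 at an unadjusted p under 0.05. Fam20c was thus the single list member that rose in the cold within either cluster type, and the part of the cluster mix in the macrophage-like counts was not tested.

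Under CL in macrophage-like cells, where 4.42% of all genes were called, the other integrins gave 0 calls of 9, the ligands 4 higher and 1 lower of 7, and the processing list 3 higher and 1 lower of 7. Vcan (3.41 ± 0.81), Emilin1 (1.65 ± 0.31), Thbs1 (1.47 ± 0.33), Sdc1 (3.28 ± 0.46), Mmp12 (1.85 ± 0.37) and Fam20c (1.76 ± 0.22) were higher and Vcam1 (-2.08 ± 0.43) and Mmp9 (-2.21 ± 0.49) lower, as in the cold, with the RT libraries shared. In the adhesion list Vcl rose (1.09 ± 0.26) and Parvg fell (-1.05 ± 0.21). In MAC2-like cells alone, where 2.97% of all genes were called under CL, Fn1, Emilin1 and Fam20c rose and Vcam1, Mmp9 and Parvg fell.

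In ASC1-like cells, where 9.44% of all genes were called in the cold, of 12 tested of 16 ligands 5 rose and 1 fell, with the matricellular proteins Tnc (5.81 ± 1.19) and Postn (4.96 ± 0.52), fibronectin, Fn1 (3.94 ± 0.89), and the hyaluronan synthase Has1 (3.14 ± 0.41), whose product is the other ligand of CD44, among those that rose. In the processing list Mmp9 (6.01 ± 0.81) and Sdc1 (1.57 ± 0.36) rose and Plau fell (-1.88 ± 0.25), and of 8 tested integrins 1 fell, Itga8 (-1.63 ± 0.36). None of 17 tested genes of the adhesion machinery passed the test by edgeR. Mmp9 thus rose in ASC1-like cells and fell in macrophage-like cells in the cold. Under CL, where 0.883% of all genes were called, Postn (4.11 ± 0.50) and Has1 (2.56 ± 0.43) rose in ASC1-like cells.

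The genes most like Spp1 in level over 204 sums, each of 1 class in 1 library, were Ms4a6d (Pearson r = 0.64 on log2 CPM, Spearman 0.61), Glrx (0.64), Mmp12 (0.64), the galectin Lgals3 (0.63) and Sap30 (0.63), among 9369 genes. For Cd44 they were Soat1 (0.81), Rnf149 (0.81), Nfil3 (0.80), Pim1 (0.80) and Apbb1ip (0.79). Spp1 and Cd44 had r = 0.51 with each other. The sums share libraries and depth, so these values are descriptions.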

How the data were processed

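Lin+ and Lin- libraries of 10 experiments were analysed, with groups taken from the sample labels. The deposited values are expected counts, that is, UMI counts per gene and cell from Cell Ranger 3.0.1 (build mm10 per the submitters' processing notes) from which the authors had subtracted estimated cell-free RNA with SoupX 1.0.1, naming Fabp4 and Car3 as genes that no cell expresses. The subtraction leaves 97.2–99.6% of the entries not whole and may lower low values. Cells were kept under 10% mitochondrial UMIs and 15000 UMIs, with fewer than 4000 genes (Lin+) or more than 100 genes (Lin-), as in the study. C57 RT replicate 2 Lin- kept 28.0% of its barcodes.

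Variable genes (2000) were chosen with scanpy 1.11.5, and their 30 components were aligned between batches with a Harmony correction. In Lin- each library was its own batch, so treatments were aligned to each other. In Lin+ the C57 libraries of a replicate number shared a batch, and each Adrb1-line library was its own. The other alignment exchanged these schemes. Clusters were made by leidenalg 0.10.2 on 30 neighbours (Leiden resolution 1), with neither the 8 genes nor the naming markers among the genes used. A name needed at least 3 raised markers, most of its list raised, a mean log2 fold of at least 1.5 and no other unrelated class. Likely doublets (6% of cells) were marked and kept, and left out as an alternative. Names rebuilt in this way may differ from those of the study. Of the 66339 Lin- cells 13967 lay in unnamed and 2874 in mixed clusters, and of the 59935 Lin+ cells 1292 and 1026. Counts were summed per class and library, rounded and tested with edgeR 4.0.16 (R 4.3.3; quasi-likelihood test, TMM scaling, low-count filter) on the 6 C57 libraries, with Benjamini-Hochberg adjustment over all genes and a threshold of 0.05. A class was fitted only where each library held 20 cells. Folds are log2 with a standard error, which for edgeR was taken as the absolute fold divided by the square root of the F statistic. Library depth was 7.86e+06 to 4.20e+07 UMIs. Shares of cells were compared by exact permutation over experiments after thinning to 1000 UMIs, with experiments exchanged freely over lines and replicate numbers. Likeness used log2 (CPM + 1) over sums of at least 50 cells and genes averaging at least 10 CPM. In simulated data of the macrophage-like cold comparison, 29 of 100 genes changed by 1 on the log2 scale and 90 of 100 changed by 2 were recovered. Among the 11608 genes, 15 unchanged ones were called. No other genes were changed in the simulation, whereas 34.7% of genes were called in the data. The adjusted p depends on that share, so these rates do not give the recovery in the real comparison.

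The study merged libraries by replicate experiment, so equal replicate numbers mark a shared experiment. Deviations from the group means correlated between same-numbered libraries by 0.104 to 0.384 in Lin+ and macrophage-like sums and by 0.00428 to 0.480 in Lin- and ASC1-like sums. Replicates differed beyond sampling noise (chi-square of 32.6 to 254 per degree of freedom). Alternatives were DESeq2 1.42.0, no low-count filter, the replicate block, each library left out, all 10 experiments, no likely doublets, resolution 2, and at least 500 genes per cell. The alignment, the alternative to it, the shared barcodes, resolution 2 for shares and the MAC3-like fit were chosen after the data had been seen. The 8 genes and all lists were chosen with earlier results of these data known. The 8 genes are described in every class, and from each of 4 pathway lists up to 4 called genes with the largest change were named per comparison.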

Additional observations from a re-analysis of the deposited data

Results flagged for a closer look

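In the share of ASC1-like cells with a Spp1 UMI at RT, C57 RT replicate 2 stood apart from the other 3 RT experiments, at 0.102% against 0% in each. This is a single cell, and with the other 3 experiments at 0% any single cell would stand apart in this way. Chance sets such a value apart in about 1 in 20 groups of continuous values, and the rate for counts this low is not known.

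The cold response of 3 genes differed between stromal classes by the test of the difference itself. Of 7 tested genes of the set, 2 were called against ASC2-like cells, where 7.11% of all genes were called. Against VEC-like cells 1 of 7 was called, where 3.62% of all genes were. Each of these calls was lost when certain single libraries were left out, as given above. Itgav responded by 0.63 more on the log2 scale in ASC1-like than in ASC2-like cells. For Itgb5 the same difference was -0.96. For Cd44 the response in ASC1-like cells was 3.06 above that in VEC-like cells, where its level was under 23 CPM in each C57 library.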

How the results depend on the processing

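Of 493 values over 43 results, 336 kept their direction and side of the threshold, 74 newly passed it, 81 no longer did, 1 moved and 1 reversed. Spp1 in the cold in ASC1-like cells passed the threshold without a low-count filter (7.24), with the replicate block (8.19), over all 10 experiments (7.58), at resolution 2 (5.54) and by DESeq2 (7.09). At resolution 2 only the Smoc2-led cluster kept the ASC1 name. The difference in its share of cells with Spp1 was 1.07 percentage points, against 3.19 in the main run. Cd44 in the cold in ASC1-like cells did not pass it at resolution 2 (0.79), with the other alignment (0.59) or without shared barcodes (1.38). The difference in the share of cells with Cd44 was 1.33 at resolution 2, and the macrophage-like share of Lin+ Spp1 UMIs in the cold was 86.2%. Spp1 in the cold over all Lin- cells was 2.79 over all 10 experiments and 2.71 by DESeq2, past the threshold in both. The KO difference of Spp1 in ASC1-like cells passed at -2.35 in the 4 Adrb1-line experiments, a fit that in effect sets 1 WT COLD against 1 KO COLD library and says nothing about the spread between mice. Spp1 under CL in ASC1-like cells reversed to -1.09 without C57 CL replicate 1. The cause of these changes was not tested. The replicate block raised the genes called in the cold from 2 to 679 in all Lin- cells, from 1154 to 1779 in ASC1-like cells and from 1543 to 2790 in all Lin+ cells, and beyond the calls given with it in the report it changed no other call of the 8 genes.

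With 1 library or experiment left out, Spp1 in the cold ranged from 6.68 to 6.98 in macrophage-like cells, from 5.48 to 5.71 in all Lin+ cells and from 6.52 to 7.67 in ASC1-like cells, and under CL from 4.22 to 6.61 in macrophage-like cells. Cd44 in the cold ranged from 0.81 to 0.94 in macrophage-like and from 1.30 to 1.45 in ASC1-like cells, and its response difference to VEC-like cells from 2.41 to 3.46. Spp1 under CL in ASC1-like cells reached 8.16 at most, and Spp1 in the cold over all Lin- cells ranged from 2.15 to 3.39. The cold minus RT share of cells with Spp1 ranged from 12.0 to 14.5 percentage points in all Lin+ cells (at most 13.2 without a C57 library, and 13.2, 13.1 and 13.1 without WT RT, KO RT and WT COLD). It ranged from 35.5 to 36.7 in macrophage-like cells (35.8 to 36.2 without a C57 library, and 35.9 and 35.8 without WT RT and KO RT) and from 2.43 to 3.61 in ASC1-like cells (3.18 to 3.50 without a C57 library, and 3.18 without WT RT or KO RT). For Cd44 it ranged from 3.73 to 5.34 (at least 4.33 without a C57 library, and 4.23, 5.00 and 4.72 without WT RT, KO RT and KO COLD). Without 1 experiment the smallest possible exact p is 0.0571, so the 8 calls lost in this way in each of the 4 share tests, counted among the 81, were fixed by the design and say nothing about stability. Where 1 library of a group is left, it is assumed to vary like the other groups. A few UMIs per library at RT limit the Spp1 fold in stromal cells.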
